A study of Mus musculus with 2 samples.

Results

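The genes described here are 9 enzymes and transporters through which an activated macrophage handles itaconate, citrate and arginine: Acod1, Slc25a1, Acly, Idh1, Nos2, Ass1, Slc7a2, Arg1 and Arg2. They were picked by gene symbol, and all 9 were found among the 55536 genes listed for each library. The series holds 1 group of 2 libraries, replicates 1 and 2, of ribosomal-RNA-depleted RNA from the nucleoplasm (the soluble part of the nucleus) of bone marrow-derived macrophages of C57BL/6J mice; no genetic change is named in the labels. The cells received 100 ng/ml Lipid A for 12 h, were then kept without it for 12 h, and received 100 ng/ml Lipid A once more for 30 min before the RNA was taken. Lipid A is the part of bacterial lipopolysaccharide that activates Toll-like receptor 4. Both libraries had this treatment and no unstimulated, once-stimulated or cytoplasmic library was analysed here, so the values are levels and not responses. They are levels of RNA in the nucleoplasm, and protein, metabolites and enzyme activity were not analysed. Each replicate has a biosample of its own in the labels and both carry the same donor identifier, but the labels do not say whether they came from separate mice or cultures, so their spread may be partly technical. Replicate 1 was made from 1 µg of RNA and replicate 2 from 500 ng, and the replicate and the amount of RNA cannot be told apart.

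Acod1 makes itaconate in mitochondria from cis-aconitate, an intermediate of the tricarboxylic acid cycle that is formed from citrate. Citrate can instead leave the mitochondrion through the carrier Slc25a1 and be split by Acly into acetyl-CoA and oxaloacetate, while Idh1 oxidises isocitrate in the cytosol and so forms NADPH. Arginine enters macrophages through cationic amino acid carriers such as Slc7a2 and is either oxidised by Nos2 to nitric oxide and citrulline or split by the arginases Arg1 and Arg2 into ornithine and urea, and Ass1 starts the return of citrulline to arginine. In mouse macrophages Acod1 and Nos2 are textbook genes of activation by bacterial products, and Arg1 of activation by interleukin 4.

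The first sequence below is the start of Acod1, whose RNA outweighed the other 8 genes together. The others are those at which transcripts of a gene part: the alternative starts of Idh1, and the coding exons by which transcripts of Acly and Slc7a2 differ. The promoter windows run 5′ to 3′ from 250 bases before to 50 bases after the RefSeq start (GRCm38.p6, 300 bases each), and capitals mark a TATA box (TATAAA) or a GC box (GGGCGG on either strand). The Acod1 window is chr14:103046762-103047061 on the plus strand; the Idh1 windows are chr1:65179093-65179392 for the downstream start and chr1:65186430-65186729 for the upstream start, both on the minus strand.
Acod1 start: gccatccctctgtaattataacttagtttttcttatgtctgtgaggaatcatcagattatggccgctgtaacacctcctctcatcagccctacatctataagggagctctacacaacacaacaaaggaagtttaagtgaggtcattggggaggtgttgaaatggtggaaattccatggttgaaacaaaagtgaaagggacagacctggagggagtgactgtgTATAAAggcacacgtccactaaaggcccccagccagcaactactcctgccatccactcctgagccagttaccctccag
Idh1 downstream start: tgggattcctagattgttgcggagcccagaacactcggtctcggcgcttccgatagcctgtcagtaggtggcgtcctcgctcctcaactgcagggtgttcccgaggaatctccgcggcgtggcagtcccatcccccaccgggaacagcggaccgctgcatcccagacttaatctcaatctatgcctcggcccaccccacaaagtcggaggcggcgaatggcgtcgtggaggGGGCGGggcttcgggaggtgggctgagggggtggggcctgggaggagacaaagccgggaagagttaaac
Idh1 upstream start: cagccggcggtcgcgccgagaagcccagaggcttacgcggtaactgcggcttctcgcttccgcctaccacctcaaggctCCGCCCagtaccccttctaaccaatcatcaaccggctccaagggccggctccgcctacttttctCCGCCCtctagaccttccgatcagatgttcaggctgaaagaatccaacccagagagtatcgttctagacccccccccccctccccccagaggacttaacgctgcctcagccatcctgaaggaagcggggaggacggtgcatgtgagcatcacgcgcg

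The exons are given on the strand of their gene, from mm10 and GENCODE M21. The Acly exon of 30 bases lies at chr11:100503160-100503189 on the minus strand and is printed without capitals. The Slc7a2 exons lie at chr8:40908056-40908195 (140 bases) and chr8:40908398-40908534 (137 bases) on the plus strand, and capitals there mark the bases that differ between them.
Acly exon: attcagtcccaagtccaagatccctgcaag
Slc7a2 140-base exon: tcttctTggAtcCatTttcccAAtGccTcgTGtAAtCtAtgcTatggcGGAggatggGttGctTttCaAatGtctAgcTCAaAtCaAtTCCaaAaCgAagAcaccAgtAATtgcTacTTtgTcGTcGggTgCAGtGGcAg
Slc7a2 137-base exon: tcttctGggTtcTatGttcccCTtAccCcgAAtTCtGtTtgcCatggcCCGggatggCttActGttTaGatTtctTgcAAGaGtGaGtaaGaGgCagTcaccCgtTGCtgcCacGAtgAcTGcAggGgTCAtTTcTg

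Promoter windows were matched for 5 of the 9 genes (Acod1, Idh1, Acly, Slc25a1 and Ass1), 6 windows in all. The TATAAA of the Acod1 window spans positions -28 to -23 from the RefSeq start, and TATAAA occurred on either strand in 13.6% of the 32817 mouse promoter windows of this length. In GENCODE M21 the gene begins at base 103046977, before the RefSeq start, and the TATAAA lies after that GENCODE start. The Acod1 window held 2 CpG, against a median of 7 over all windows. Each Idh1 window held 23, the Ass1 window 27, the Acly window 18 and the Slc25a1 window 30. GGGCGG, found in 35.6% of all windows, occurred in the 5 windows other than that of Acod1, with 4 matches each in Acly and Slc25a1. An NF-kB consensus of 10 letters, found in 11.2% of all windows, matched in the Slc25a1 window alone. Shorter forms of the NF-kB site were not searched. TGANTCA (7.81% of all windows), GAAANNGAA (8.55%) and TTCNNNGAA (8.29%) matched in none of the 6. The matches are letters in these windows, and binding was not measured.

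Each library comes with values per gene and per transcript derived from reads aligned to transcripts (alignment-based below) and with values per transcript made directly from the reads (read-based). Levels are given as TPM, a share of all transcripts that is scaled to transcript length and so can be compared between genes. The gene tables hold 23845991 and 20675294 expected counts in replicates 1 and 2, and a count of 3 equals 0.126 and 0.145 CPM (counts scaled to the library total). Over 15051 genes the counts of the replicates differed by far more than sampling noise (chi-square of 108 per gene), so they were kept as separate libraries. Protein-coding genes of the mitochondrial genome took 2.81% of the counts in replicate 1 and 6.85% in replicate 2. All 8 macrophage markers reached 1 TPM in both libraries, with medians of 112 and 126 TPM, while the 7 neutrophil markers summed to 2.57 and 4.77 TPM, and none of the markers of dendritic cells (5), mast cells and basophils (4), fibroblasts (4) or T and B cells (5) reached 1 TPM in both. Of 3 endothelial markers Kdr did, at 9.61 and 6.17 TPM, and of 3 erythroid markers Alas2 did, at 1.91 and 3.02 TPM. These marker values are alignment-based. Read-based, the T cell marker Cd3d was at 1.21 and 3.99 TPM in replicates 1 and 2, and the endothelial marker Pecam1 at 1.81 and 6.29 TPM. Which markers of other cell types reached 1 TPM in both libraries thus depends on the table. In bulk RNA, fewer cells that use a gene and less of its RNA per cell cannot be told apart.

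RNA of Acod1 stood far above that of the other genes. Acod1 was at 491 TPM in replicate 1 and 563 TPM in replicate 2 (527 ± 50.2, SD, n = 2), and no other gene of the 9 passed 18.6 TPM. That put Acod1 at rank 35 and rank 38 of the 14607 protein-coding genes listed above 0 in either library. Its share of all gene counts was 0.191% (95% Wilson interval 0.190 to 0.193%) in replicate 1 and 0.182% (0.180 to 0.184%) in replicate 2, where intervals here and below cover counting error only. Of the TPM summed over the 9 genes, Acod1 held 92.1% in replicate 1 and 91.2% in replicate 2, and 90.6% and 91.2% in the read-based tables. The gene, ENSMUSG00000022126.6, lies at chr14:103046977-103056573 on the plus strand, has 1 annotated transcript, and shared none of its 2593 stretches of 31 bases with a transcript of another gene.

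**Figure D1:**
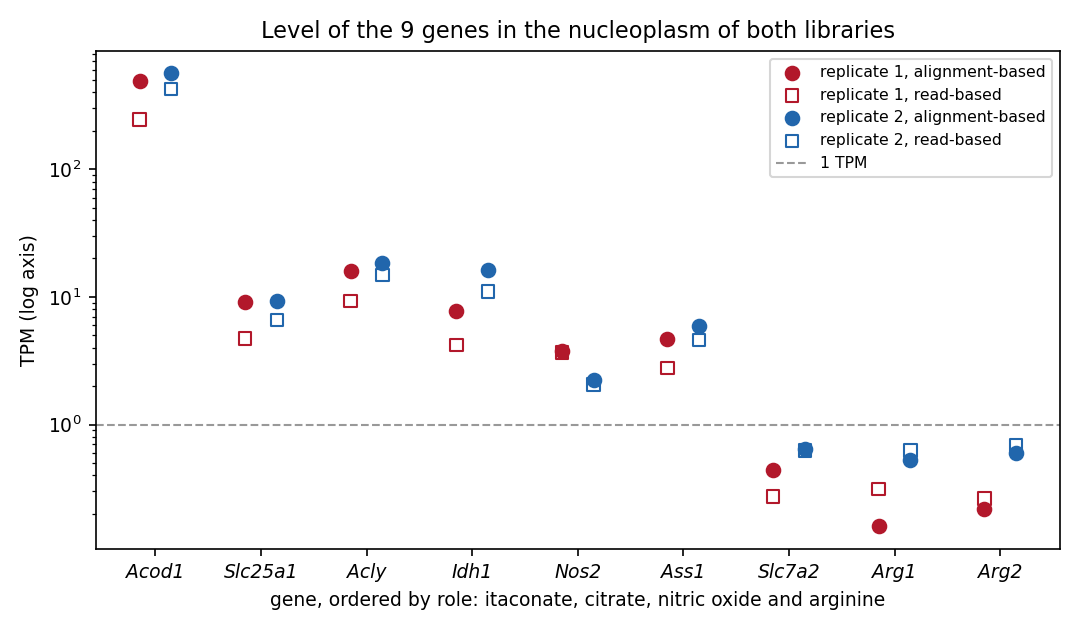
TPM (log axis) of the 9 genes, ordered by role, in replicate 1 (red) and replicate 2 (blue), with filled circles for alignment-based and open squares for read-based values; the dashed line is 1 TPM. Acod1 lies between 246 and 563 TPM in all 4 values, the 3 citrate genes between 4.18 and 18.6 TPM, and Slc7a2, Arg1 and Arg2 below 1 TPM throughout.

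As the plot of levels shows, the 9 genes fell into 3 tiers: Acod1, then 5 genes between 2.25 and 18.6 TPM (Acly, Idh1, Slc25a1, Ass1 and Nos2), then 3 below 1 TPM in both libraries (Slc7a2, Arg2 and Arg1). By mean TPM the order was Acod1, Acly, Idh1, Slc25a1, Ass1, Nos2, Slc7a2, Arg2 and Arg1. The libraries of neighbours did not overlap between Acod1 and Acly, Slc25a1 and Ass1, Ass1 and Nos2, or Nos2 and Slc7a2. They overlapped between Acly and Idh1, Idh1 and Slc25a1, Slc7a2 and Arg2, and Arg2 and Arg1. Within each library Acly was still above Idh1, by 2.06-fold in replicate 1 but only 1.14-fold in replicate 2. Read-based, the ratios were 2.23 and 1.35. The order of Idh1 and Slc25a1 turned between the libraries. That of Slc7a2 and Arg2 turned with the table in replicate 2, and that of Arg2 and Arg1 in replicate 1. The neighbours other than Acly and Idh1 that overlapped thus cannot be ranked. At 1 TPM or more in both libraries were 6 of the 9 genes (66.7%), beside 9220 of the 14607 protein-coding genes (63.1%). The median of the 9 was 4.64 TPM in replicate 1 and 5.91 TPM in replicate 2, against 2.79 and 3.36 TPM over the protein-coding genes, which is their percentile 60.0 and 60.8. Single genes ran from percentile 20.4 (Arg1) to 99.8 (Acod1) in replicate 1, and from 27.8 to 99.7 in replicate 2.

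RNA of each citrate gene was present, between 7.75 and 18.6 TPM. Acly (ATP citrate lyase, ENSMUSG00000020917.17, chr11:100476353-100528000, minus strand) was at 16.0 and 18.6 TPM in replicates 1 and 2 (17.3 ± 1.84). Slc25a1 (the mitochondrial citrate carrier, ENSMUSG00000003528.15, chr16:17925223-17928219, minus strand) was at 9.10 and 9.27 TPM (9.19 ± 0.120). Idh1 (ENSMUSG00000025950.16, chr1:65158616-65186500, minus strand) was at 7.75 TPM in replicate 1 and 16.4 TPM in replicate 2 (12.1 ± 6.09), so that it lay below Slc25a1 in replicate 1 and above it in replicate 2. Acly exceeded Slc25a1 by 1.75-fold and 2.00-fold in TPM in replicates 1 and 2. Acod1 exceeded Acly by 30.8-fold and 30.3-fold, a ratio nearly the same in both libraries, but exceeded Idh1 by 63.4-fold in replicate 1 and 34.4-fold in replicate 2.

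Of the arginine genes, only Nos2 and Ass1 passed 1 TPM in both libraries. Nos2 (inducible nitric oxide synthase, ENSMUSG00000020826.8, chr11:78920787-78960254, plus strand) was at 3.76 TPM in replicate 1 and 2.25 TPM in replicate 2 (3.01 ± 1.07), which is percentile 55.4 and 43.5 of the protein-coding genes. Ass1 (argininosuccinate synthase, ENSMUSG00000076441.9, chr2:31470207-31520672, plus strand) was at 4.64 and 5.91 TPM (5.28 ± 0.898). In the alignment-based tables Ass1 exceeded Nos2 by 1.23-fold in replicate 1 and 2.63-fold in replicate 2, but in the read-based table of replicate 1 the ratio was 0.756, so their order there depends on the table. Ass1 shares 43.1% of its 31-base stretches with the processed pseudogene Gm5424, which was given 0 and 9.09 expected counts beside 224 and 200 for Ass1, and the split of reads between them is uncertain. Nos2 and Ass1, which act on the route from arginine to nitric oxide and back, were thus far below Acod1. Acod1 exceeded Nos2 by 131-fold in replicate 1 and 250-fold in replicate 2, or by 67.0-fold and 206-fold read-based.

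The arginases and the carrier Slc7a2 were below 1 TPM in both libraries, the arginases with few counts. Arg1 (liver-type arginase, ENSMUSG00000019987.9, chr10:24915221-24927484, minus strand) had 6 expected counts in replicate 1 (exact Poisson interval 2.20 to 13.1) and 9 in replicate 2 (4.12 to 17.1), or 0.160 and 0.530 TPM. Arg2 (the mitochondrial arginase, ENSMUSG00000021125.6, chr12:79130777-79156301, plus strand) had 10.04 (4.80 to 18.4) and 20.1 (12.2 to 30.9), or 0.220 and 0.600 TPM. Slc7a2 (ENSMUSG00000031596.15, chr8:40862396-40922308, plus strand) had 63.4 and 79.0 expected counts, or 0.440 and 0.640 TPM (0.540 ± 0.141). With so few counts the arginases could not be ranked against each other. In the same TPM, Nos2 exceeded Arg1 by 23.5-fold in replicate 1 and 4.25-fold in replicate 2, and Arg2 by 17.1-fold and 3.75-fold, so Nos2 was above both arginases in both libraries by an amount that rests on counts of 20.1 or fewer. Read-based, Nos2 exceeded Arg1 by 11.7-fold and 3.28-fold. Read-based counts in replicates 1 and 2 were higher, at 29 and 35 for Arg1, 35.4 and 51.2 for Arg2, and 233 and 283 for Slc7a2.

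Reads of Arg2 and Slc7a2 cannot be told apart from those of overlapping neighbours with a strand setting not given in the sources used here. Arg2 overlaps Vti1b on the opposite strand, which had 269 and 242 expected counts, and the antisense gene Gm48780 with 21 and 40; 23.6% of the 31-base stretches of Arg2 are shared with these. Slc7a2 overlaps the lincRNA Gm26584 on the opposite strand, with 43.6 and 15.1 expected counts, and shares 8.78% of its stretches with other genes. Arg1, Nos2, Acod1, Acly, Idh1 and Slc25a1 shared none.

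Markers of alternative activation, the state for which Arg1 is known, were uneven beside its low counts. Mrc1 (the mannose receptor) was at 32.7 and 67.4 TPM and Il4ra (a chain of the interleukin 4 receptor) at 41.6 and 42.2 TPM, whereas Retnla was listed at 0 in both libraries and Mgl2 was at 0.110 and 0.210 TPM. In all, 4 of the 6 such markers reached 1 TPM in both libraries, near the 63.1% of protein-coding genes that did.

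Between the replicates, Nos2 stood apart from the other members with enough counts. Ratios are log2 of replicate 1 over replicate 2, computed on counts scaled by edgeR's trimmed mean of M-values, for genes whose mean count was at least 100. By alignment-based counts 6 of the 9 genes qualified, and Slc7a2, Arg1 and Arg2 did not. Slc7a2 passed the minimum read-based, with a log2 ratio of -0.24 (-0.50 to 0.01). With 1 group there is no test of a difference and no p-value. Nos2 had 579 expected counts in replicate 1 and 248 in replicate 2, a log2 ratio of 1.02 (95% Clopper-Pearson interval 0.81 to 1.25), or 2.03-fold. Nos2 was the 1 gene of the 6 beyond 2-fold, beside 3.49% of all 9675 genes that qualified (338; 1.82% higher in replicate 1 and 1.67% higher in replicate 2). Its interval runs from below to above 2-fold, so at this depth it lies at the limit and not clearly past it.

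Idh1 moved the other way, with 616 expected counts in replicate 1 and 922 in replicate 2, a log2 ratio of -0.78 (-0.93 to -0.63), which lies at percentile 3.59 of all genes. The middle 95% of genes ran from -0.87 to 0.90, so Idh1 fell inside that range and Nos2 outside it. Acod1, with 45661 and 37568 expected counts, had a log2 ratio of 0.08 (0.06 to 0.10). Acly had 1913 and 1871 counts and a ratio of -0.17 (-0.26 to -0.07), and the intervals of Slc25a1 (-0.06, from -0.26 to 0.15) and Ass1 (-0.03, from -0.32 to 0.25) included 0. The 4 genes other than Nos2 and Idh1 thus lay between percentiles 34.5 and 60.4 of the ratios of all genes, whose median was -0.02.

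**Figure D2:**
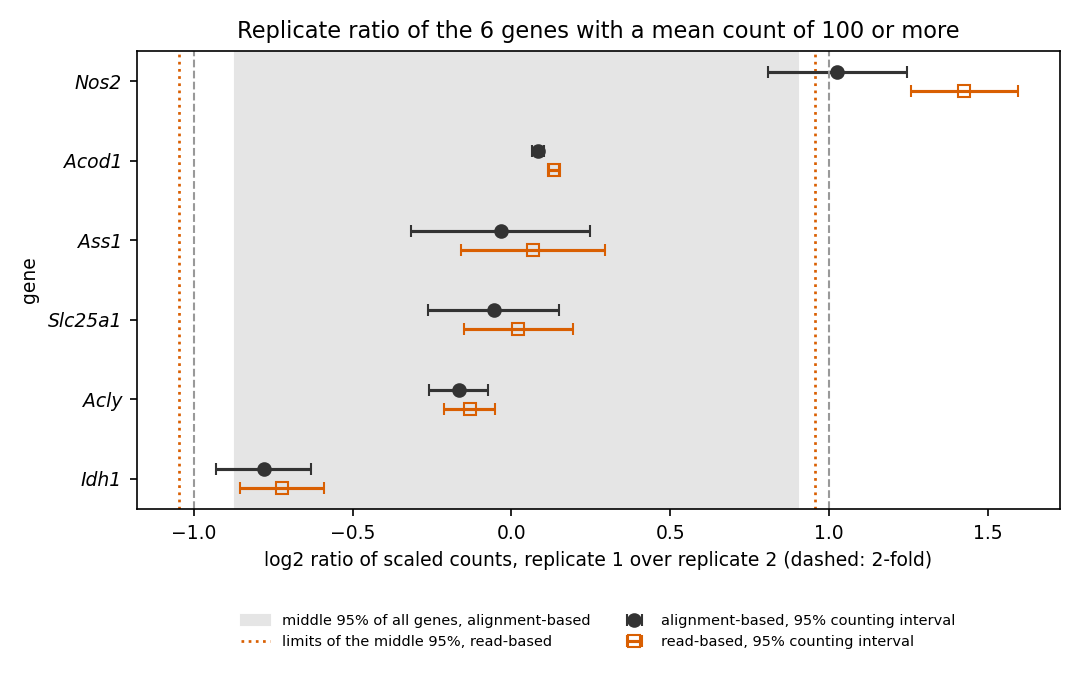
Log2 ratio of scaled counts, replicate 1 over replicate 2, for the 6 genes whose mean count was at least 100, from alignment-based (filled circles) and read-based (open squares) counts, with 95% counting intervals; grey covers the middle 95% of all alignment-based ratios, dotted lines bound that of the read-based ratios, and dashed lines mark 2-fold. Nos2 lies right of the range of its own table in both, at 1.02 and 1.42, and Idh1 inside it, at -0.78 and -0.72.

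The plot of replicate ratios shows that the read-based counts gave Nos2 a log2 ratio of 1.42 (1.26 to 1.60) and Idh1 one of -0.72 (-0.85 to -0.59), where the middle 95% of read-based ratios ran from -1.05 to 0.96. On TPM the gap of Nos2 was smaller and that of Idh1 larger: log2(TPM + 0.1) differed by 0.72 for Nos2 and by -1.07 for Idh1. TPM was also shifted over nuclear protein-coding genes with a mean count of at least 100. Their median difference was -0.27, against -0.03 for the scaled counts. The mitochondrial share, given above, was also higher in replicate 2, and its part in these ratios was not tested, except that scaling on non-mitochondrial genes left the Nos2 ratio at 1.03.

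The genes nearest to Acod1 in level were Lgmn (433 and 520 TPM), Rnf213 (458 and 482 TPM) and Adgre1 (416 and 641 TPM), by distance in log2(TPM + 0.1) over the 2 libraries. Nearest to Nos2 were Kptn (3.85 and 2.25 TPM), Cep63 (3.94 and 2.23 TPM) and Hexdc (3.73 and 2.37 TPM). With 2 values per gene this likeness is one of level alone.

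Transcript tables add which form of each gene was present; 7 of the 9 genes have at least 2 annotated transcripts. The transcript with the most TPM was the same in both libraries for 6 of these 7 in the alignment-based tables, Arg1 being the exception, and for 6 of 7 in the read-based tables, Acly being the exception. For 4 of them (Idh1, Slc25a1, Nos2 and Ass1) it was the same in both libraries and both tables. The tables share the same reads, so agreement between them is no independent check.

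Idh1 RNA was assigned mostly to the downstream start. Transcript Idh1-201, which begins at the downstream RefSeq start, held 98.3% of the TPM of the gene in replicate 1 and 94.2% in replicate 2, with 613 and 892 expected counts. The 5 transcripts that begin near the upstream start, 7337 bases away, held 1.68% and 5.81%, with 3.05 and 30.0 expected counts. Read-based values gave the downstream transcript 72.1% and 88.3%, so both tables put it first and differ in how far. Of the printed windows, then, the downstream one, with its GC box at -19 to -14, belongs to the start that most Idh1 reads were assigned to.

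Acly transcripts differ in the 30-base coding exon printed above. Among transcripts that span it, those with the exon held 43.7% of the TPM in replicate 1 and 35.8% in replicate 2, from 748 and 626 expected counts with it and 1121 and 1235 without. Read-based values gave 62.5% and 49.3%. Both forms thus had reads assigned in each library; the form without the exon was the larger in replicate 2 in both tables, and in replicate 1 the order depends on the table. The leading alignment-based transcript, Acly-207, which lacks the exon, held 46.0% and 60.7% of all Acly TPM.

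Slc7a2, in mouse, encodes the carriers CAT2A and CAT2B, which differ in 1 stretch of the protein through the alternative use of coding exons; which exon belongs to which carrier is not assigned here. Aligned, the printed exons are identical at 84 of 140 columns (60%), with 53 mismatches and 3 gap columns. Transcripts with the 140-base exon held 80.6% and 76.6% of the TPM of transcripts with either exon, from 44.2 and 46.9 expected counts, against 17.8 and 32.0 for those with the 137-base exon. The read-based values were 55.1% and 51.4%. These counts are assigned to whole transcripts, and reads over the exons themselves were not counted. In replicate 2 the deposited lower TPM bound of Slc7a2-201, which holds the 137-base exon, was 2.86e-06. The balance of the exons was thus not resolved.

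Retained-intron transcripts, forms that keep an intron and are annotated as noncoding, were listed for 3 of the genes. Slc25a1-201, the coding form, held 73.2% of Slc25a1 TPM in replicate 1 and 98.3% in replicate 2, and retained-intron forms 26.9% and 1.71%. That gap rests on 14.9, 7.83 and 13.4 expected counts of 3 short transcripts in replicate 1 and 2.63 of 1 transcript in replicate 2, out of 407 and 369 for the gene; the read-based shares were 39.8% and 5.02%. Ass1 held 19.8% and 22.1% in retained-intron forms, or 36.9% and 30.7% read-based, much alike in both libraries. Nos2-201 held 100% of Nos2 TPM in both alignment-based tables but 52.8% and 79.4% read-based, where the noncoding Nos2-202 took most of the rest. For Arg1, with 6 and 9 counts, shares of transcripts are not informative.

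**Figure D3:**
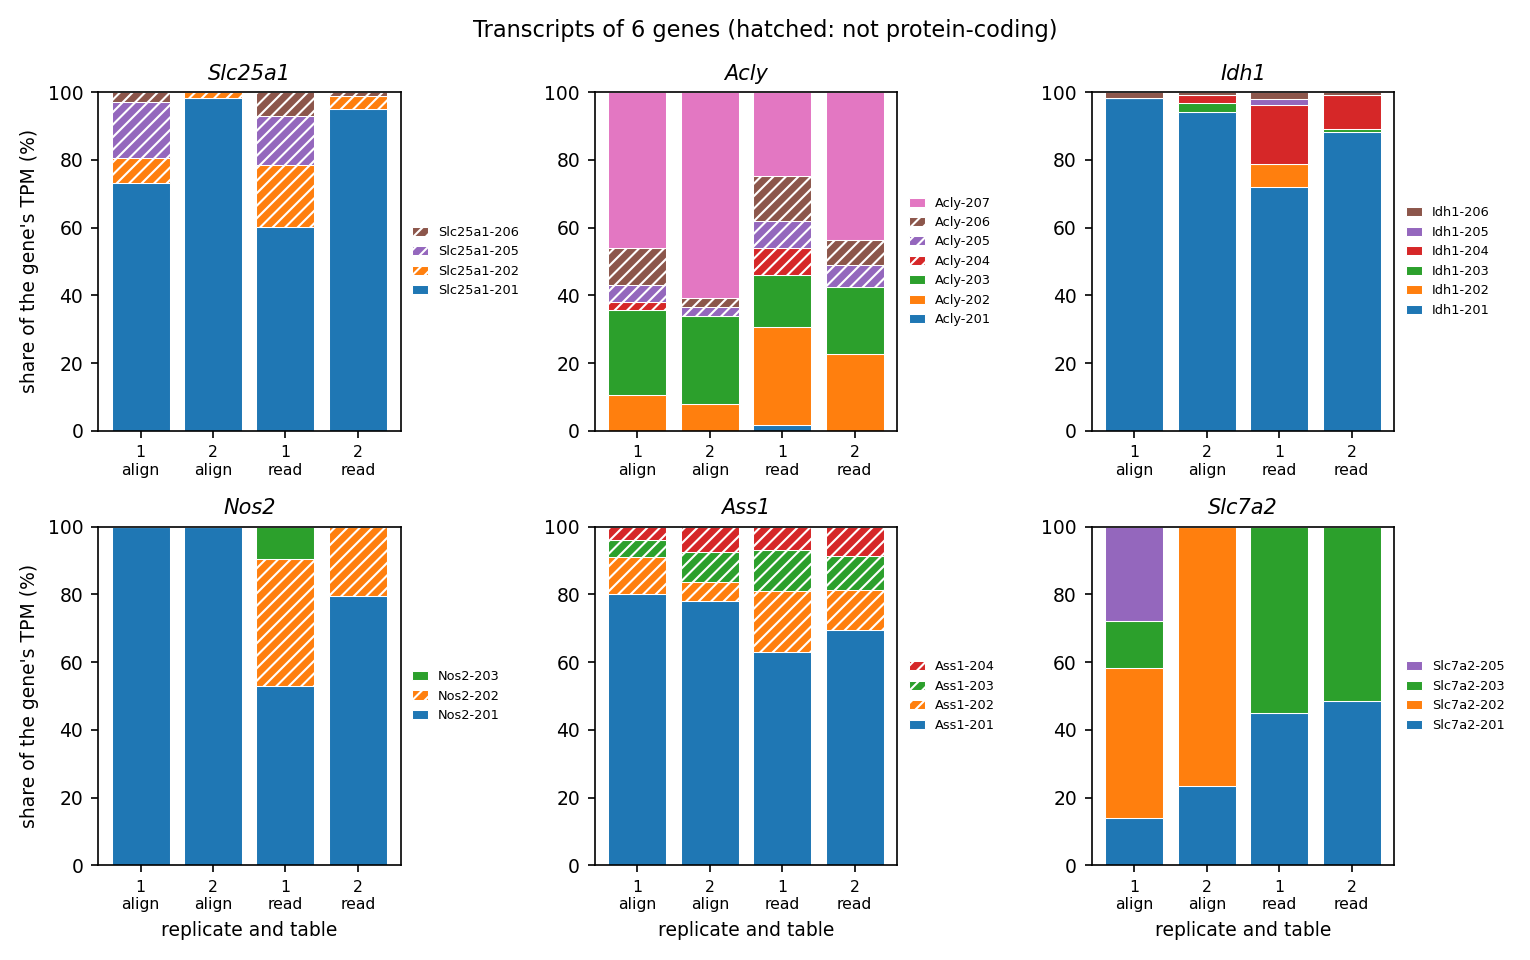
Share of the TPM of each gene (percent, stacked to 100) held by its transcripts, for 6 genes; the bars of a panel are replicates 1 and 2 alignment-based and then replicates 1 and 2 read-based, and hatching marks transcripts that are not protein-coding. Idh1-201 leads in each bar of its gene (72.1 to 98.3%), Slc25a1 has a larger retained-intron share in replicate 1 than in replicate 2 in both tables, and the leading Slc7a2 transcript differs between tables.

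The 9 genes were set beside 4 lists of their pathway partners. Of 17 genes through which itaconate acts or is broken down, 15 reached 1 TPM in both libraries, which 63.1% of protein-coding genes did, and 2 were below it in both. The highest were Nfkbiz (which encodes IkB-zeta, 151 and 216 TPM), Nfe2l2 (NRF2, 130 and 190 TPM) and Atf3 (a stress-induced transcription factor, 60.8 and 59.4 TPM). None of the 15 with enough counts was beyond 2-fold between replicates, where 3.49% of all genes were; the ratios furthest out were those of Sdhb (0.47), a subunit of succinate dehydrogenase, and Sdhaf1 (-0.86), an assembly factor of that enzyme.

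In the citrate and tricarboxylic acid cycle list, 22 of 24 genes reached 1 TPM in both libraries, which 63.1% of protein-coding genes did. The list had medians of 7.62 and 10.005 TPM, beside 7.75 to 18.6 TPM for Acly, Idh1 and Slc25a1. Dlst, a subunit of 2-oxoglutarate dehydrogenase, was at 30.5 and 35.8 TPM. Acod1 RNA thus exceeded that of each of the 24. Among the 22 with enough counts, none was beyond 2-fold, where 3.49% of all genes were. The ratios ran from -0.41 for Cs (citrate synthase) to 0.45 for Acss2 (cytosolic acetyl-CoA synthetase).

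Of the arginine, citrulline and polyamine genes, 14 of 24 reached 1 TPM in both libraries and 9 were below it in both, near the 63.1% of protein-coding genes that reached it. Sat1 (spermidine and spermine acetyltransferase) was at 328 and 206 TPM, Slc3a2 (the heavy chain of amino acid carriers) at 118 and 148 TPM, and Azin1 (antizyme inhibitor) at 25.8 and 37.4 TPM. Sat1 had a log2 replicate ratio of 0.95 and Odc1, which makes putrescine from ornithine, one of -0.84, the furthest of the 14 with enough counts. None of the 14 was beyond 2-fold, where 3.49% of all genes were. Slc7a1, another cationic amino acid carrier, named here for its role, was at 9.22 and 11.8 TPM, or 20.95-fold and 18.4-fold above Slc7a2. Asl, which follows Ass1 in the return of citrulline to arginine and is also named for its role, was at 6.65 and 4.26 TPM, that is 1.43 and 0.721 times Ass1; read-based, the ratios were 2.27 and 1.31, so the order in replicate 2 turns with the table.

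The tetrahydrobiopterin list, for the cofactor that Nos2 needs, had 5 of 8 genes that reached 1 TPM in both libraries, also near the 63.1% of protein-coding genes. Gch1 (GTP cyclohydrolase, the first enzyme of its synthesis) was at 15.6 and 13.9 TPM, Pts (the next) at 13.3 and 11.9 TPM, and Qdpr (which recycles the cofactor) at 3.56 and 6.47 TPM. Gch1 and Pts were thus above Nos2 itself in both libraries. The 3 with enough counts had replicate ratios of 0.43 for Gch1, 0.21 for Pts and -0.54 for Qdpr. None was beyond 2-fold, where 3.49% of all genes were. Gchfr, which encodes a regulator of Gch1, was listed at 0.

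**Figure D4:**
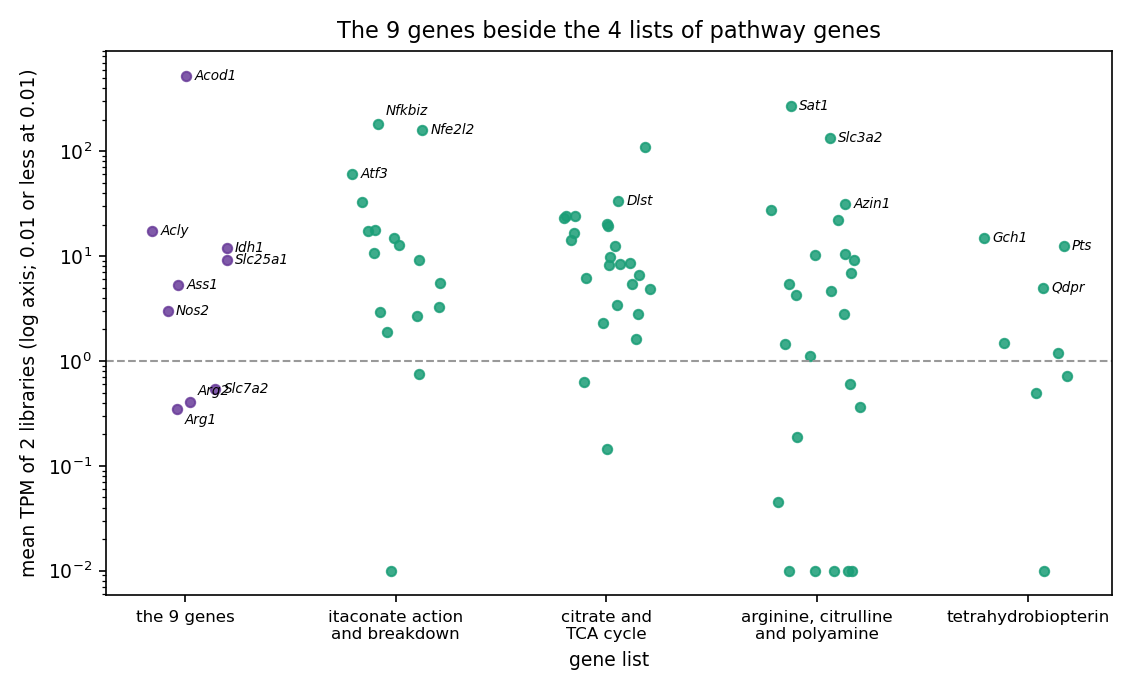
Mean TPM of the 2 libraries (log axis, values of 0.01 or less drawn at 0.01) for the 9 genes and for the 4 lists of pathway genes, 1 point per gene, with names for the 9 genes, for Dlst in the citrate list and for the highest 3 of each other list; the dashed line is 1 TPM. Acod1, at 527 TPM, lies above each gene of the 4 lists, and Slc7a2, Arg2 and Arg1 lie below the line.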

How the data were processed

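Nucleoplasmic RNA of 2 libraries of 1 group was analysed, each with 3 deposited tables. The authors made expected counts, TPM, FPKM, transcript shares in percent and credibility bounds (treated as a signal) from transcriptome alignments, per the file headers, and estimated counts and TPM per transcript from the read files; assembly mm10 and GENCODE M21 are named there. The sources used here name no aligner, quantifier, version or strand setting, and no pooling or trimming. Expected counts were rounded and scaled by TMM (edgeR 4.0.16, R 4.3.3) or, as an alternative, by DESeq2 1.42.0 size factors. Ratios used a prior count of 0.5 and a mean count of at least 100. Counting intervals are at 95%, and PCR copies are not independent molecules, so they cover counting error only. The ratio step was tested on simulated counts. FPKM served only as an alternative to TPM. Genes were joined to symbols by gene ID. Promoter windows are from RefSeq GRCm38.p6, and other sequences from mm10. Tables were read with Python 3.11.15, pandas 2.3.3 and scipy 1.17.1.

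The 9 genes, the 4 pathway lists and the marker lists were chosen with earlier results of these data known. Named from each list are its 3 highest genes by mean TPM and the largest ratio in each direction; the members, markers, Slc7a1, Asl and genes overlapping a member are named apart from that rule. Of the citrate list, 2 genes that the rule picks are not reported here. Alternatives changed the table, scaling, prior count, pseudocount, count minimum, TPM threshold and replicates used.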

Additional observations from a re-analysis of the deposited data

How the results depend on the processing

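At 1 TPM in both libraries, 6 of 9 genes passed with each table, with thresholds of 0.5 and 2 TPM and with either replicate alone. The median TPM of the 9 genes, 5.28 as a mean over libraries, was 4.14 read-based and ran from 4.64 to 5.91 with 1 replicate left out; its percentile of 60.4 was 68.0 read-based and 41.2 among genes at 1 TPM or more. The 1 gene beyond 2-fold became 0 on log2(TPM + 1), and 2 (Nos2 and Arg2) with a mean count of 10 or no minimum; on log2(TPM + 0.1) and log2(TPM + 0.01) it was Idh1 in place of Nos2. Nos2 was beyond 2-fold in 5 of its 8 alternatives, from 0.55 to 1.42, one of them, scaling without mitochondrial genes, chosen after seeing the data; Idh1 kept its sign in 8 of 8, from -1.08 to -0.72; Acod1 kept its sign in 5 of 8 and was -0.19 on log2(TPM + 0.1). The 338 of 9675 genes beyond 2-fold became 703 of 13976 read-based and 1317 of 15051 with a mean count of 10. With no minimum they were 6349, of a total not given here. More genes qualified in each of these alternatives, so the counts alone do not give the change in share. The causes were not tested. The order by TPM placed 6 of 9 genes alike read-based. No paired analysis was possible because the study has 1 group. Low counts limit Arg1 and Arg2, with 6 to 20.1 alignment-based and 29 to 51.2 read-based, and 2 libraries limit each SD.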

Other observations

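The read-based tables set the 9 genes differently from the alignment-based ones, and not by a common factor. The log2 ratio of alignment-based over read-based TPM was 1.00 in replicate 1 and 0.40 in replicate 2 for Acod1, 0.04 and 0.13 for Nos2, and -0.97 and -0.25 for Arg1. The deposited credibility bounds of Acod1 run from 473 to 482 TPM in replicate 1 and from 536 to 547 TPM in replicate 2, and neither range holds the deposited TPM of 491 and 563. For the other 8 genes the bounds hold it.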
